A study of Mus musculus with 4 samples.

Results

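These 245 regions of the mouse genome carried a called peak of histone H3 trimethylated on lysine 4 (H3K4me3) in 3 of 4 macrophage libraries and lacked one only in LPS-treated Wbp7-/- cells. They were chosen from the peak calls themselves. The peaks of the 4 deposited lists were joined wherever they shared at least 1 bp, which gave 18786 regions. Those called in both Wbp7+/- libraries and in untreated Wbp7-/- cells, but not in LPS-treated Wbp7-/- cells, were kept.

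The cells were primary macrophages grown from bone marrow for 7 days, from mice of a C57BL/6 background mixed with a minor part of 129/Ola. They were Wbp7+/-, with 1 functional copy of the gene, or Wbp7-/-, with none. Each genotype was sampled without treatment and 4 h after lipopolysaccharide (LPS) at 10 ug/ml. Every group held 1 library, so no difference between groups has a replicate check and no test between groups was run. The labels do not say how many mice gave a library, nor in which cells or at what age the gene was deleted. The heterozygous cells are the control, and no wild-type library was used here.

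H3K4me3 is a histone mark found mainly at promoters that are active or ready for use. Wbp7, now usually called Kmt2b, encodes 1 of several methyltransferases that place it. LPS, a component of the bacterial outer membrane, is sensed by macrophages through the receptor Tlr4 and switches on inflammatory genes, many of which gain H3K4me3 or related marks as they are activated.

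The 4 lists held from 14599 to 17316 peaks, and the Wbp7-/- lists were the shorter ones. Each peak has a score from the authors' peak caller, MACS, which by that program's convention rises as the p-value of the peak falls. No list held a score under 50, and 8950 to 9695 peaks per list stand at 3100 or slightly above. These were read as 1 class, called the ceiling. A score depends on sequencing depth, which is unknown here, so scores rank peaks within a list and their sizes do not measure change between libraries. The header of the LPS-treated Wbp7+/- list names 24 h where its label gives 4 h, and which of these times holds is not known. Positions are in mm9, counted from 1. Genes at the regions, the macrophage markers and the sequences of the regions were not analysed here, because the gene and promoter tables used here are of another build.

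The 245 regions were weakly called in the Wbp7-/- library in which they did have a peak. Their scores in untreated Wbp7-/- cells ran from 50.01 to 311.62 with a median of 72.53, and 186 of them scored under 100. None reached 500, although 10598 of the regions called in the other 3 lists did. The median region scored above 6.01% of the untreated Wbp7-/- list, and the highest above 21.5% of it. These values were part of the choice of the regions and are given as a description.

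Of the 12539 regions called in all of the other 3 lists, the 245 were 1.95% (95% Wilson interval 1.73 to 2.21). The interval, like those that follow, covers counting error over regions and leaves out variation between mice. The share fell steeply with the untreated Wbp7-/- score. It was 31.4% (27.8 to 35.2; 186 of 593) under 100 and 4.38% (3.41 to 5.60; 59 of 1348) from 100 to under 500. It was 0 of 1614 from 500 to under 3100, which allows a share of up to 0.186%, and 0 of 8984 at the ceiling, which allows up to 0.0334%. Among the regions called in both Wbp7+/- lists, a peak of untreated Wbp7-/- cells was thus without an LPS counterpart only at scores under 500. An absent peak means that the caller's threshold was not passed, and not that the mark was absent.

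The same count with the Wbp7-/- libraries exchanged gave a larger class that held higher scores. A peak was missing only in untreated Wbp7-/- cells at 453 regions, 3.55% (3.25 to 3.89) of 12747, and 54 of the 453 scored 500 or above in LPS-treated Wbp7-/- cells, 11 of them at the ceiling. Among the 245, the number at 500 or above was 0. The gap between the classes was smaller in alternatives that removed weak peaks, but it was not confined to weak peaks. The reverse class and the class described here numbered 221 and 169 with lists of equal length, and 297 and 179 without scores under 100. By score in the other Wbp7-/- list, they held 261 and 186 regions under 100, and 138 and 59 from 100 to under 500. For a Wbp7+/- list as the missing one, the counts were 337 of 12631 (2.67%) after LPS and 73 of 12367 (0.59%) untreated. The share of 1.95% is thus the second lowest of the 4, and in the LPS-treated libraries a region was missing alone more often from the Wbp7+/- list. How much of these shares follows from the depths of the libraries was not tested.

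**Figure D1:**
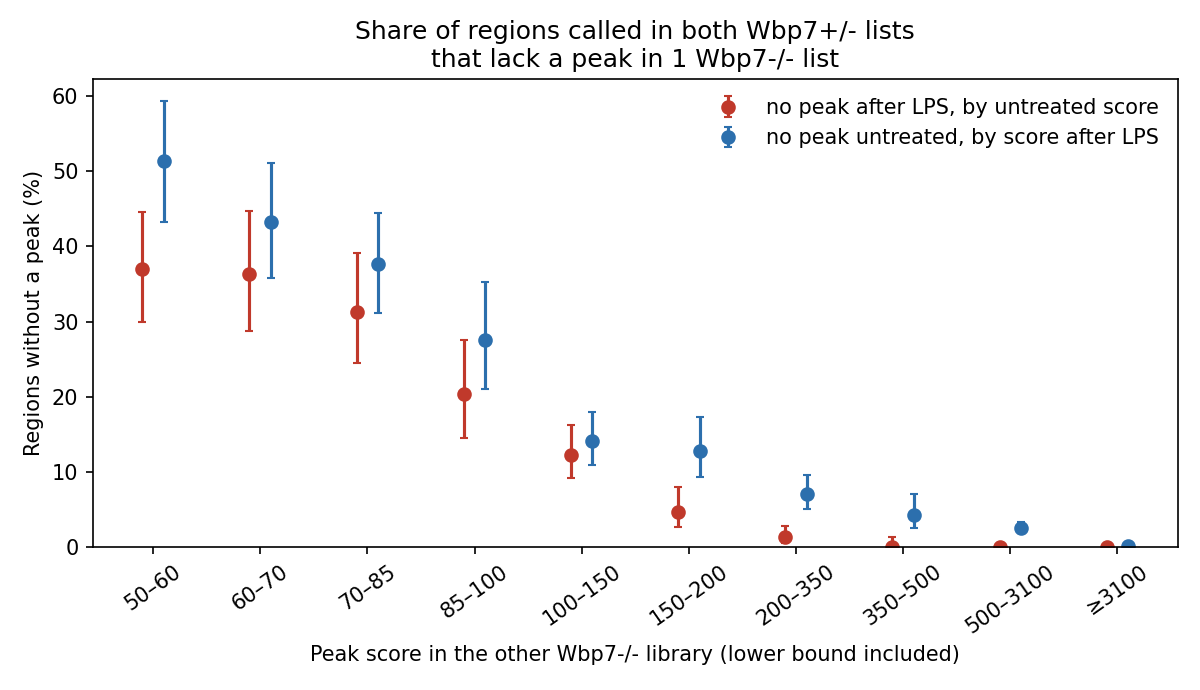
Share of regions without a peak in 1 Wbp7-/- list (vertical axis, percent) against the peak score in the other Wbp7-/- list (horizontal axis, classes of score), among regions called in both Wbp7+/- lists. Points are shares and bars 95% Wilson intervals; the share without a peak after LPS (red) goes from 37.0% at scores of 50 to 60 to 0 at 350 and above, and the reverse (blue) from 51.4% to 0.124% at the ceiling.

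In Wbp7+/- cells the scores of the same regions spread more widely. Untreated Wbp7+/- scores ran from 50.75 to the ceiling with a median of 216.54, and after LPS the median was 159.2. Counted from the top of each list, the median region had 13645 higher-scoring peaks in untreated Wbp7+/-, 14114 in LPS-treated Wbp7+/- and 13721 in untreated Wbp7-/- cells. Each median is of its own list, and the lists differ in length, so these ranks show neither change nor likeness between libraries. Of the 245, 55 scored 500 or above in both Wbp7+/- lists (22.4%, 17.7 to 28.1), 4 of them at the ceiling in both, and 23 scored under 100 in all 3 lists (9.39%, 6.34 to 13.7). Of the 1696 regions with a peak in every list and an untreated Wbp7-/- score under 500, 682 scored 500 or above in both Wbp7+/- lists (40.2%). In that set 131 were at the ceiling in both and 31 scored under 100 in the same 3 lists (1.83%). The sets are unlike in untreated Wbp7-/- score, which was under 100 at 186 of the 245 and 407 of the 1696. Among those regions, 23 of 186 and 31 of 407 scored under 100 in the same 3 lists, so the shares of the whole sets partly reflect their make-up.

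The untreated Wbp7-/- score was below the untreated Wbp7+/- score at 219 of the 245 regions (89.4%, 84.9 to 92.7). The 1696 regions gave 82.7% (1403 of 1696). Their untreated Wbp7-/- peaks were narrower than the untreated Wbp7+/- peaks in 61.6% of cases, against 69.8% (63.8 to 75.2) of the 245. Among regions scoring under 100 in untreated Wbp7-/- cells, both Wbp7+/- scores were 500 or above at 38 of 186 of those missing after LPS (20.4%, 15.3 to 26.8). The share was 124 of 407 (30.5%, 26.2 to 35.1) of those with a peak in every list, and these intervals touch. From 100 to under 500 it was 17 of 59 (28.8%, 18.8 to 41.4) against 558 of 1289 (43.3%, 40.6 to 46.0). A lower score in untreated Wbp7-/- than in untreated Wbp7+/- cells was thus common in both sets. Both hold only untreated Wbp7-/- scores under 500, which favours this order in advance.

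**Figure D2:**
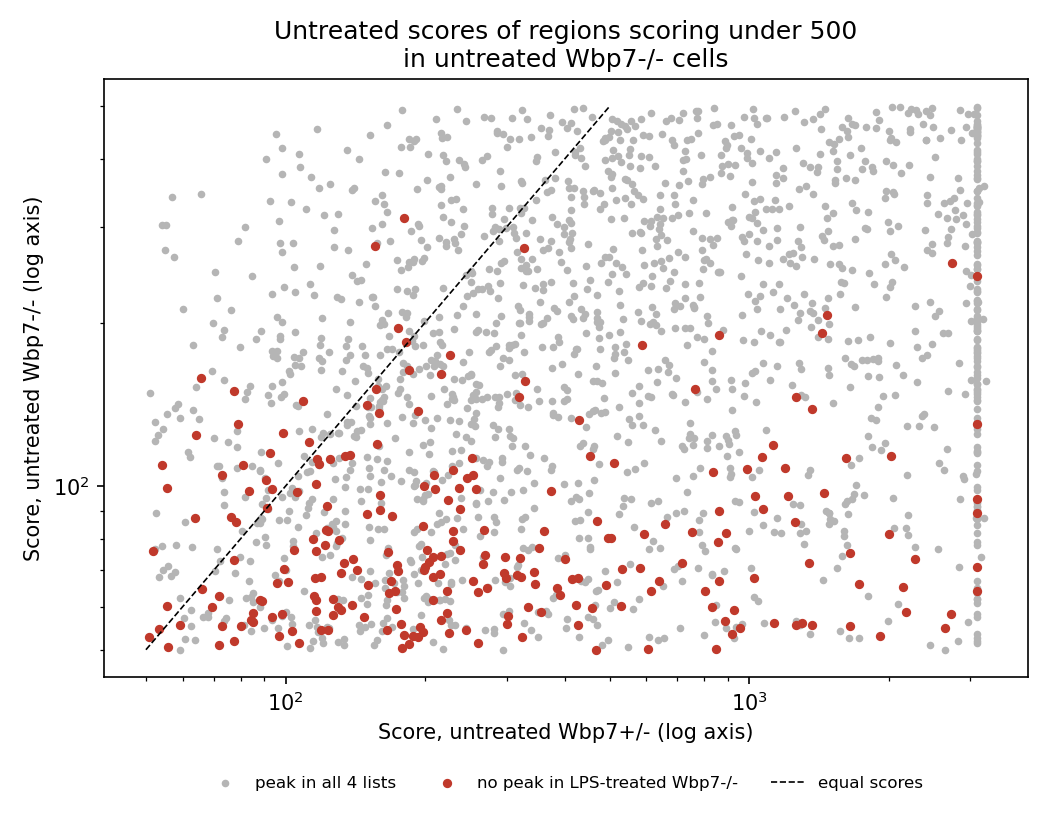
Score in untreated Wbp7-/- cells (vertical, log axis) against score in untreated Wbp7+/- cells (horizontal, log axis) for regions scoring under 500 in untreated Wbp7-/- cells; red points are the 245 regions not called in LPS-treated Wbp7-/- cells, grey points the 1696 with a peak in all 4 lists. Red points lie under 312 on the vertical axis and spread from 50.75 to the ceiling on the horizontal one, and 219 of 245 lie below the line of equal scores.

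At the top of the untreated Wbp7-/- scores, 6 regions exceeded 200, and they were of different kinds. The highest was at chr8:73380360-73381062. It scored 311.62 untreated in Wbp7-/-, 179.75 untreated in Wbp7+/- and 121.59 in LPS-treated Wbp7+/- cells. The next, at chr1:36518644-36519440, scored 276.74, 156.2 and 54.13 in the same order. Both were higher in Wbp7-/- than in either Wbp7+/- library, and in Wbp7+/- cells both scored lower after LPS than untreated.

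The region at chr2:121989426-121990449 scored 274.05 in the untreated Wbp7-/- library and 326.53 in the untreated Wbp7+/- one. After LPS its Wbp7+/- score was 71.99, above 6.84% of that list. At this region the peak was thus weakly called after LPS in the heterozygous cells and not called in the Wbp7-/- cells. The nearest peak of LPS-treated Wbp7-/- cells lay 1894 bp away.

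The other 3 regions above 200 had high Wbp7+/- scores in both treatments. At chr11:69153608-69154982 the Wbp7+/- scores were 2739.51 untreated and 2496.7 after LPS, beside 257.38 in untreated Wbp7-/- cells. At chr7:53121144-53122802 they were 3100 and 3079.4 beside 243.64, and at chr6:134933370-134934515 they were 1474.61 and 705.78 beside 206.74. The Wbp7-/- peaks there measured 1111, 905 and 943 bp, against 1323, 1542 and 1063 bp in untreated Wbp7+/- cells.

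Of the 20 regions with the highest untreated Wbp7-/- scores, 17 scored lower after LPS than untreated in Wbp7+/- cells and 7 scored 500 or above in untreated Wbp7+/- cells. Of the 1289 regions with a peak in every list and an untreated Wbp7-/- score from 100 to under 500, 57.1% scored lower after LPS and 51.6% scored 500 or above in untreated Wbp7+/- cells. A similar profile to the region on chromosome 2 was seen at chr19:5648712-5649959, with Wbp7+/- scores of 226.22 untreated and 69.99 after LPS and a Wbp7-/- score of 174.55. At chr4:140127601-140129168 the 3 scores were 175.04, 80.54 and 195.09. The 3 exceptions to the lower score after LPS lay at chr16:46495919-46497464 (65.85 and 134.34), at chrX:155948204-155949142 (156.68 and 316.29) and at chr2:93439297-93440113 (77.59 and 80.94).

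**Figure D3:**
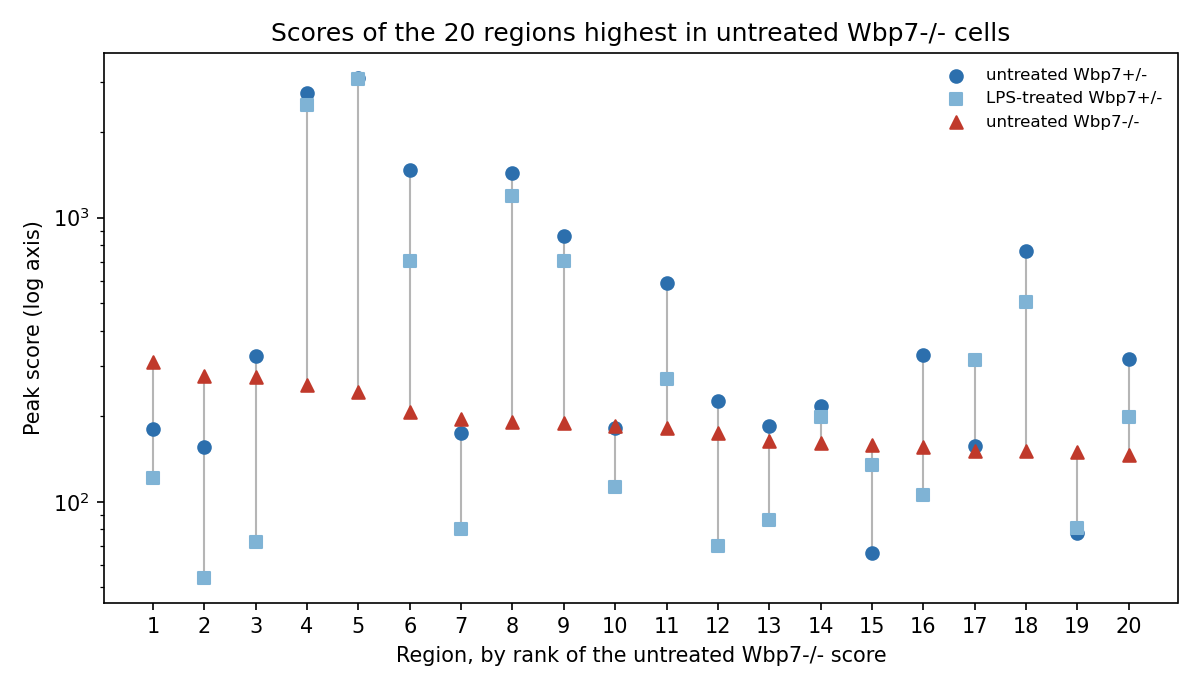
Peak scores (vertical, log axis) of the 20 regions with the highest score in untreated Wbp7-/- cells, ordered by that score (horizontal); circles are untreated Wbp7+/-, squares LPS-treated Wbp7+/- and triangles untreated Wbp7-/- cells, 1 library each. Triangles fall from 311.62 to 145.72, and squares lie below circles at 17 of the 20 regions.

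The 4 regions at the ceiling in both heterozygous libraries were wider there than in untreated Wbp7-/- cells. At chr4:57312398-57315040 the heterozygous peaks measured 2616 bp untreated and 2642 bp after LPS, both at the ceiling. The untreated Wbp7-/- peak was 706 bp wide with a score of 70.93, from 57312583 to 57313288. At chr16:96348146-96350407 the Wbp7+/- peaks were 2254 and 2064 bp wide, against 584 bp with a score of 63.99 in untreated Wbp7-/- cells.

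The other two showed the same order. At chr11:105450300-105452539 the widths were 2043 bp (untreated Wbp7+/-), 2075 bp (LPS-treated Wbp7+/-) and 915 bp (untreated Wbp7-/-). At chr3:98231019-98232758 they were 1637, 1721 and 966 bp, with a Wbp7-/- score of 130.37. At these 4 regions the untreated Wbp7-/- peak was narrower than either heterozygous peak. Its lower score follows from the choice, because none of the 245 scored above 311.62 in untreated Wbp7-/- cells. Such a profile was not particular to the class. With untreated Wbp7-/- scores under 100, it was seen at 3 of the 186 missing after LPS. It was also seen at 26 of the 407 with a peak in every list, and their widths were not compared with these.

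Over all 245 regions, the median width of the joined region was 1111 bp and the widest measured 2683 bp, against a median of 2585.5 bp for regions with a peak in every list. Within classes of the untreated Wbp7-/- score the medians lay closer. They were 1072 and 1250 bp under 100, and 1195 and 1417 bp from 100 to under 500. The widest of the 245 was at chr6:149273959-149276641, with Wbp7+/- peaks of 2320 and 2655 bp and a Wbp7-/- peak of 1054 bp. It was low in every list, at 229.91, 249.92 and 79.22. Median peak widths were 902 bp in untreated Wbp7+/-, 897 bp in LPS-treated Wbp7+/- and 729 bp in untreated Wbp7-/- cells. For the 186 regions under 100 in untreated Wbp7-/- cells they were 877, 902 and 710.5 bp, against 1001, 1047 and 774 bp for the 407 of that score with a peak in every list. The Wbp7-/- peak lay near the middle of the heterozygous one, with a median of 91.0 bp between their centres, and spanned a median of 77.6% of it. At 2 regions the untreated peaks of the 2 genotypes did not touch each other and were joined through the LPS-treated Wbp7+/- peak.

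The LPS response of the heterozygous cells was not used to choose the regions, beyond the presence of both peaks. The Wbp7+/- score was lower after LPS than untreated at 178 of the 245 regions (72.7%, 66.8 to 77.9), higher at 63 (25.7%, 20.6 to 31.5) and equal, at the ceiling, at 4. Among regions with a peak in every list and an untreated Wbp7-/- score under 500, the share with a lower score after LPS was 53.8% (51.5 to 56.2; 913 of 1696) and with a higher one 38.4%. The other 131 of the 1696 were equal, at the ceiling. At the 453 regions missing only in untreated Wbp7-/- cells the share with a lower score was 32.2% (28.1 to 36.7), and 10 were equal. The 3 sets were read from the same pair of Wbp7+/- libraries. Regions are not replicates of a treatment, and the differences were not tested.

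The size of the difference depended on the scores held alike. At like untreated Wbp7+/- scores alone, a lower score after LPS was seen at 46.3% (32.1 to 61.3; 19 of 41) against 33.1% (52 of 157) under 100. It was seen at 82.0% (74.8 to 87.5; 114 of 139) against 65.6% (621 of 946) from 100 to under 500. From 500 to under 3100 the shares were 72.9% (60.4 to 82.6; 43 of 59) and 68.2% (1158 of 1699), within the interval of the first.

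Within classes of the untreated Wbp7-/- score the shares lay further apart. Under 100 in untreated Wbp7-/- cells, the Wbp7+/- score was lower after LPS at 131 of 186 regions of the 245 (70.4%, 63.5 to 76.5). It was lower at 177 of the 407 with a peak in every list (43.5%, 38.8 to 48.3). It was equal, at the ceiling, at 3 of the 186 and 26 of the 407. Keeping also to untreated Wbp7+/- scores from 100 to under 500, the shares were 79.6% (86 of 108) and 56.0% (117 of 209), and from 500 to under 3100 they were 69.8% (30 of 43) and 40.6% (43 of 106). With untreated Wbp7-/- scores from 100 to under 500 the shares were 79.7% (47 of 59) and 57.1% (736 of 1289). Inside that class the untreated Wbp7-/- scores were still unlike, with medians of 125.04 and 227.34. Regions equal at the ceiling, which cannot count as lower, numbered 1 of the 59 and 105 of the 1289. The result rests on the LPS-treated Wbp7+/- library, whose header and label name different LPS times.

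**Figure D4:**
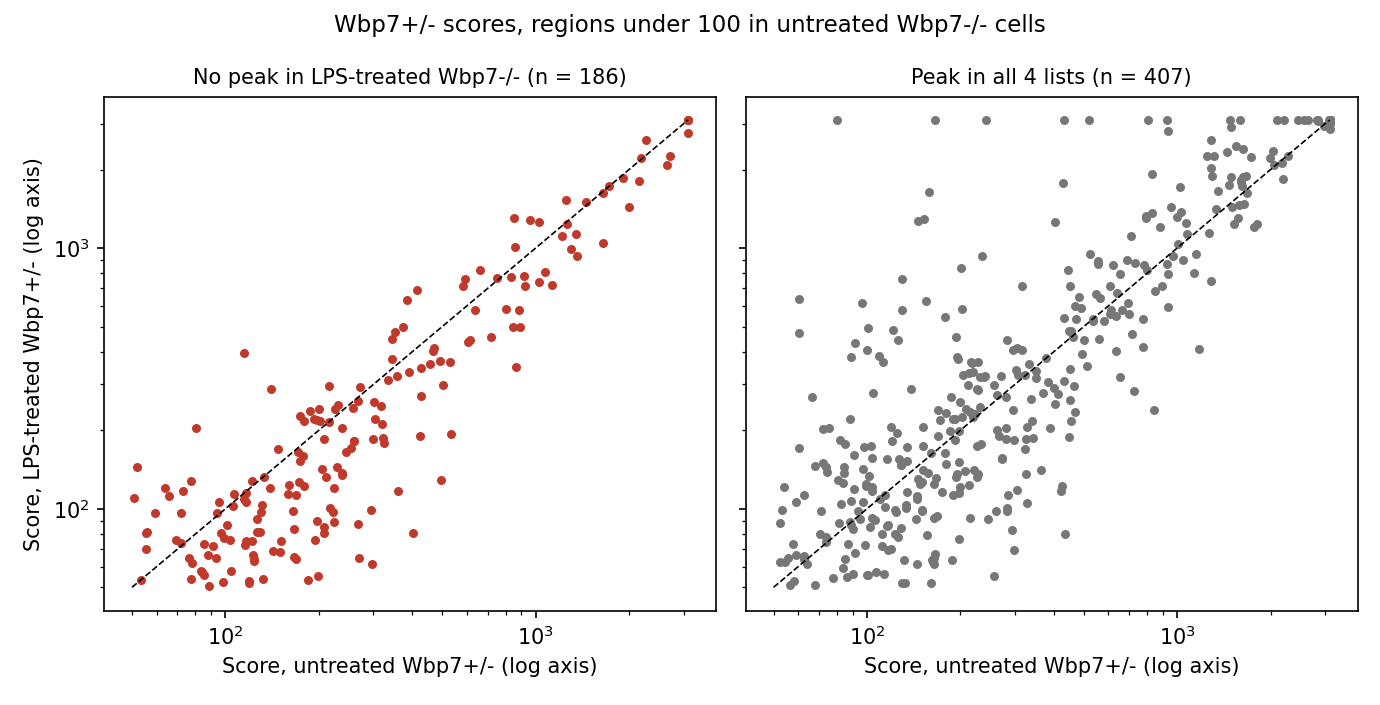
Score in LPS-treated Wbp7+/- cells (vertical, log axis) against score in untreated Wbp7+/- cells (horizontal, log axis) for regions scoring under 100 in untreated Wbp7-/- cells, without a peak (left, n = 186) or with a peak (right, n = 407) in LPS-treated Wbp7-/- cells; scores above 3100 are drawn at 3100 and the dashed line marks equal scores. On the left 131 of 186 points lie below the line, on the right 177 of 407.

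The share of regions without a peak after LPS in Wbp7-/- cells also moved with the LPS-treated Wbp7+/- score, at like untreated Wbp7-/- scores. Among regions under 100 in untreated Wbp7-/- cells, it was 44.0% (35.9 to 52.5; 59 of 134) where the LPS-treated Wbp7+/- score was under 100. It was 32.3% (27.0 to 38.1; 87 of 269) from 100 to under 500, 25.7% (19.3 to 33.4; 37 of 144) from 500 to under 3100 and 6.52% (2.24 to 17.5; 3 of 46) at the ceiling. With untreated Wbp7-/- scores from 100 to under 500, the shares in the same order were 12.3% (21 of 171), 3.83% (21 of 549), 3.39% (16 of 472) and 0.641% (1 of 156). Regions scoring under 100 after LPS in heterozygous cells were thus more often without a call after LPS in Wbp7-/- cells. The intervals of some neighbouring classes overlap.

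The class is bounded by the calling threshold of every list, and these bounds are separate. The regions just inside the bound of the untreated Wbp7-/- list were at chr18:13945093-13946157 (50.01), at chr10:81095968-81097128 (50.05) and at chr7:6351140-6352010 (50.18). Their Wbp7+/- scores were 467.48 and 403.82, 603.93 and 434.37, and 847.23 and 498.96. At the bound of the LPS-treated Wbp7-/- list, just outside the class, were regions whose peak there was barely called. They lay at chr7:80885207-80885896 (50.01 there), at chr11:53913996-53915339 (50.06) and at chr7:147243571-147244647 (50.1). The second of these scored 936.91 and 795.09 in Wbp7+/- cells and 55.07 in untreated Wbp7-/- cells, values within the range of the class. How near the regions of the class came to a call in LPS-treated Wbp7-/- cells is unknown, because they have no score there.

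The 245 regions were spread over all 20 chromosomes represented in the lists. As a share of the regions called in the other 3 lists, they made up from 1.18% (0.600 to 2.31; 8 of 677) on chromosome 8 to 2.99% (1.63 to 5.42; 10 of 334) on chromosome 18, and these intervals overlap. How close they lay to each other was not compared with other sets of regions. Within 20 kb of each other were 3 pairs, on chromosome 8 (93488804-93490485 and 93500523-93501574), chromosome 2 (75614572-75616632 and 75630517-75631454) and chromosome 17 (88354346-88355244 and 88372045-88373132).

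Some regions lay near places that kept their peak in every library. The median distance to the nearest region with a peak in all 4 lists was 18.3 kb, and 51 of the 245 (20.8%, 16.2 to 26.3) lay within 5 kb of one. For the 453 regions missing only in untreated Wbp7-/- cells, 24.9% (21.2 to 29.1) did, and for the 2047 regions in both Wbp7+/- lists only, 12.2% (10.9 to 13.7). Within 1 kb of a region of all 4 lists lay 7.35% of the 245, 12.6% of the 453 and 3.03% of the 2047. Such closeness was thus not particular to the 245. At 18 of the 245 (7.35%) the nearest LPS-treated Wbp7-/- peak was within 1 kb. The region at chr10:79804493-79805781 was 216 bp from one, and that at chr6:125097945-125099936 was 230 bp from one. At such places a peak was still called beside the missing one. At the other end, 30 regions lay 100 kb or more from any region of all 4 lists, among them that at chr16:46495919-46497464, at 484561 bp. The share at that distance was not counted for the other sets.

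**Figure D5:**
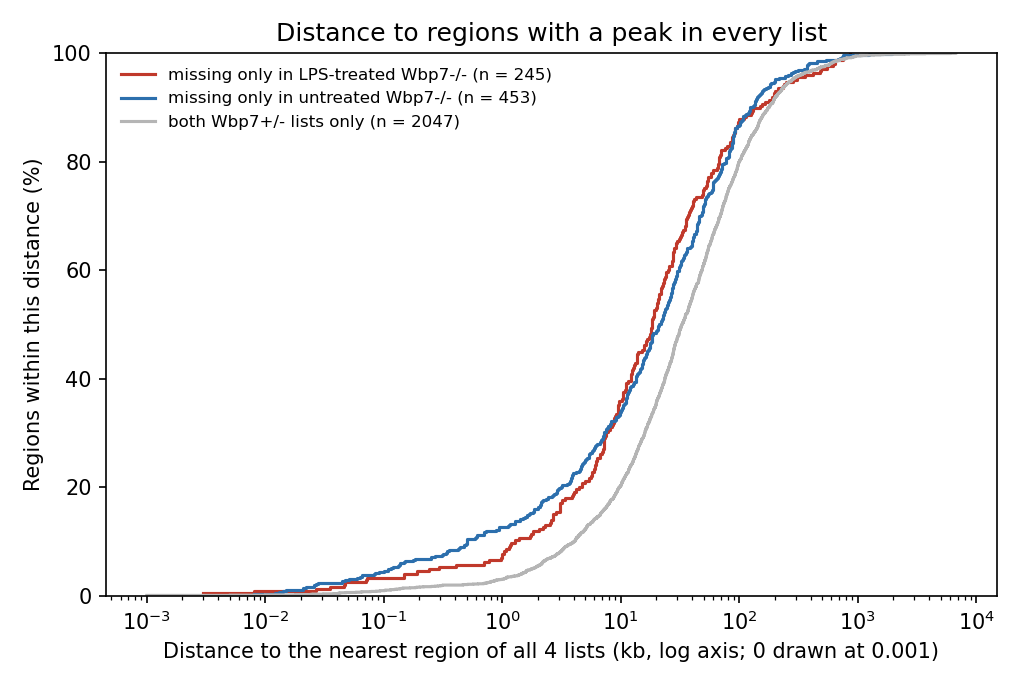
Share of regions (vertical, percent) whose nearest region with a peak in all 4 lists lies within a given distance (horizontal, kb, log axis) for the 245 regions missing only in LPS-treated Wbp7-/- cells (red), the 453 missing only in untreated Wbp7-/- cells (blue) and the 2047 in both Wbp7+/- lists only (grey). At 5 kb the lines stand at 20.8%, 24.9% and 12.2%.

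The number of regions depended on which lists were required. Without the LPS-treated Wbp7+/- list, whose LPS time is uncertain, regions called in both untreated libraries and not in LPS-treated Wbp7-/- cells numbered 406, or 3.10% of 13113. With that list left out the class asks for 1 peak fewer.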

How the data were processed

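H3K4me3 ChIP-seq gave 1 peak list for each of the 4 groups, taken from the sample titles. Reads were aligned with Bowtie to mm9, per the submitters' processing notes, and the peak caller was MACS, per the file headers, in which the word input points to an input DNA control. The sources used here give no versions, thresholds or read numbers, so the depth behind a missing peak is unknown. The authors deposited a score per peak as the caller wrote it, used here to rank and class peaks.

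Peaks were joined with bedtools 2.31.1 where they overlapped by at least 1 bp. A region took the highest score and the summed width of its peaks in each list. Shares have 95% Wilson intervals (scipy 1.17.1), and a count of 0 has the limit that 3 counts would give. The class counting was checked on slightly shifted copies of the untreated Wbp7-/- list, with peaks removed from 1 copy. Such copies are more alike than the deposited lists, so the check covers the counting only. No test between groups could be made with 1 library in each. The regions named were drawn from the 20 highest in untreated Wbp7-/- cells, the 5 widest, the 5 highest in LPS-treated Wbp7+/- cells and the 3 lowest in untreated Wbp7-/- cells. Neighbouring pairs, regions just outside the class and those of opposed direction were chosen after their values were seen. The members and lists were chosen with earlier results of these data known. Gene lists and sequences were not used, because the tables given are of GRCm38. Alternatives were joining within 1 kb, accepting a peak within 1 kb, dropping scores under 100, lists of equal length, joining book-ended peaks and a cover of 50%. Python 3.11.15, pandas 2.3.3, numpy 2.4.6 and matplotlib 3.10.9 were used.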

Additional observations from a re-analysis of the deposited data

Results flagged for a closer look

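At 63 of the 245 regions (25.7%) the Wbp7+/- score was higher after LPS than untreated while the Wbp7-/- peak was called untreated and not after LPS. They were picked out because the peak calls of 1 genotype and the scores of the other went in opposite directions. With 1 library for each genotype and treatment, the difference was not tested. A higher Wbp7+/- score after LPS stood at 25.7% here beside 38.4% (652 of 1696) among regions with a peak in every list and an untreated Wbp7-/- score under 500. Under 100 in untreated Wbp7-/- cells the counts were 52 of 186 beside 204 of 407, and from 100 to under 500 they were 11 of 59 beside 448 of 1289. Of the 63, 52 scored under 100 in untreated Wbp7-/- cells, as did 186 of the 245, and the highest score there was 158.32. The rise in score was largest at chr11:72832033-72833405, with Wbp7+/- scores of 854.41 untreated and 1305.07 after LPS beside 78.87 in untreated Wbp7-/- cells. At chr7:105341968-105343358 the 3 scores were 957.43, 1285.56 and 54.84, and at chr7:71041423-71042650 they were 114.64, 395.38 and 79.85. Outlying samples could not be looked for in groups of 1.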

How the results depend on the processing

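No paired analysis was possible because each group held 1 library and no result comes from a test between groups. Among 23 values under alternatives, 15 lay within 1.5 times the count reported, or within the 95% interval of the reported share or median, and 8 did not. The count of 245 stayed within 1.5 times under all 6 alternatives planned for it, from 169 with lists of equal length to 292 with a cover of 50%, and moved to 406 without the LPS-treated Wbp7+/- list, which was chosen after seeing the data. The share of 1.95% became 1.53% without scores under 100, 1.42% with lists of equal length, 2.48% with a cover of 50% and 3.10% without the LPS-treated Wbp7+/- list. The reverse class of 453 regions became 297 without scores under 100 and 221 with lists of equal length, and stayed the larger class under each alternative. Dropping weak peaks also makes new absences, so these counts need not be parts of the reported ones. The median distance to a region of all 4 lists was 12.4 kb for the 59 regions scoring 100 or above in untreated Wbp7-/- cells, outside the interval of 13.7 to 22.0 kb. For the differences in score no alternative was run, and the unknown depths limit them.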
